A study of Mus musculus with 2 samples.

Results

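Basement membrane genes were followed in endothelial cells of the mouse lung 6 h after melanoma cells reached it. The set held 10 of the 31053 genes listed in the count tables, named one by one in a rule that takes no measured value. It comprised the collagen IV chains Col4a1 and Col4a2, the laminin chains Lama3, Lama4, Lama5, Lamb1 and Lamc1, the linker Nid1, the heparan sulfate proteoglycan Hspg2 (perlecan) and the collagen-binding protein Sparc. All 10 were found in both libraries.

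Wild-type C57BL/6 mice received B16-F10 cells, a melanoma line of the same strain background, in PBS through the tail vein (metastatic, 200000 cells per mouse) or PBS alone (control). Lungs were taken 6 h later, cells of 2 mice were pooled per group, PECAM1-positive cells were sorted without a second marker against leukocytes, and 1 droplet library of RNA 3′ ends was made per group. A group was therefore 1 library with no replicate, cells are not replicates, and no test between groups was made. Each interval given is an exact 95% interval that covers counting error of these 2 libraries only, not the spread between mice. Injection of cells into the blood models arrest in the lung vessels and not the earlier steps of spread from a tumor.

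The basement membrane is the thin matrix sheet on which endothelial cells sit, and in the alveolus it lies between capillary and epithelium. Laminins, each built of an alpha, a beta and a gamma chain, assemble a first network at the cell surface. Collagen IV, built mostly of the products of Col4a1 and Col4a2, forms a second, crosslinked network, nidogen (Nid1) bridges the networks, perlecan (Hspg2) brings heparan sulfate that holds growth factors, and SPARC binds collagen IV and influences its deposition.

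Col4a1 and Col4a2 are neighbors on chromosome 8 and are read in opposite directions from a shared start region. In the GRCm38 annotation, Col4a1 lies at chr8:11198423-11312826 on the minus strand and Col4a2 at chr8:11312805-11449287 on the plus strand, so that the annotated 5′ ends of the pair overlap by 22 bases. The 30 bases of the plus strand at chr8:11312801-11312830 (RefSeq, GRCm38.p6) are shown because they hold both starts. Capitals mark the 22 bases between the start of Col4a2 and the start of Col4a1.
Col4a1 and Col4a2 start sites: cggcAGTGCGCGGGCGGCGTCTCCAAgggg
The counted 3′ ends of the genes lie at the opposite, far ends of this pair. Windows of 250 bases before to 50 bases after the start were matched for 7 of the 10 genes. The hexamer GGGCGG, searched on both strands, was in 6 of these 7 windows (Col4a1, Col4a2, Lama5, Lamb1, Nid1 and Hspg2) and in 35.7% of 32851 windows of all genes. The Col4a1 and Col4a2 windows overlap, and the 1 match of Col4a1 lies in the bases shown, so it counts for both genes. CCAAT was in 4 of the 7 windows (37.4% of all) and TATAAA in 0 (13.6% of all). The part of G and C content in the hexamer share was not tested. The Sparc window held none, and its G and C content of 55.3% was the lowest of the 7, where the others reached up to 74.0% and the median of all windows was 52.7%. The remaining genes lie on other chromosomes, Lama5 at chr2:180176373-180225859, Lamc1 at chr1:153218922-153332786, Nid1 at chr13:13437551-13512269, Hspg2 at chr4:137468769-137570630, Lama4 at chr10:38965515-39110188, Lamb1 at chr12:31265234-31329644 and Sparc at chr11:55394500-55423183.

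The control library held 67929614 unique molecular identifiers (UMIs, each standing for 1 captured RNA molecule) and the metastatic library 64733724. A barcode was taken as a cell when it had between 1000 and 5000 genes and a mitochondrial share below 20%, which gave 7134 in the control and 6466 in the metastatic library, and 16 barcodes were called in both libraries. Cells were classed by detected marker genes into general capillary (gCap-like, 5020 and 4519 cells), aerocyte capillary (aCap-like, 1364 and 1086), vein-like (247 and 304) and artery-like cells (63 and 59). A lymphoid-like class (53 and 52 cells) served as the cell type that should lack these genes. Endothelial markers not used in the rule summed to 9383 and 9397 UMIs per 1000000 UMIs of the class (CPM) in gCap-like cells against 370.0 and 294 in lymphoid-like cells. In artery-like cells artery markers summed to 2634 and 2399 CPM and vein markers to 2204 and 1894 CPM. Most of this vein sum was Vwf (1813 and 1519 CPM). Bgn stood at 258 and 218 CPM, Prss23 at 81.1 and 103, Nr2f2 at 48.7 and 39.1 and Dnm3 at 4.06 and 14.4 CPM. Each was higher in vein-like cells (Vwf 2332 and 2257, Bgn 393 and 452, Prss23 1956 and 1623, Nr2f2 347 and 267, Dnm3 169.5 and 174 CPM). The median depth was 5950.5 and 6275 UMIs per gCap-like cell, 7911 and 8139.5 per aCap-like cell and 4689 and 5015.5 per lymphoid-like cell.

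Collagen IV and Sparc made up most of the signal. Together the 10 genes held 0.217% of all gCap-like UMIs in the control and 0.234% in the metastatic library, and 0.255% and 0.241% of aCap-like UMIs. Col4a1, Col4a2 and Sparc accounted for 91.7% and 91.3% of these UMIs in gCap-like cells and for 83.3% and 84.7% in aCap-like cells. Since each RNA is counted once from its 3′ end, levels were compared between genes without a length term.

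Col4a1 was the most abundant of the 10 in both capillary classes. In gCap-like cells it stood at 886 CPM (interval 876 to 896, 28435 UMIs) in control and 932 CPM (921 to 943, 28219 UMIs) in metastatic lungs, and in aCap-like cells at 1116 and 1045 CPM. Col4a2 stood at 463 and 489 CPM in gCap-like cells and at 687 and 637 CPM in aCap-like cells. Both chains thus had their highest level in aCap-like cells, and both were lowest in the large-vessel classes, where Col4a1 stood at 514 and 453 CPM in vein-like and at 424 and 389 CPM in artery-like cells. After each cell was thinned to 2000 UMIs, so that depth did not set the share, 77.8% and 76.7% of gCap-like cells held a Col4a1 UMI, against 3.77% and 3.92% of lymphoid-like cells. Without thinning, the share in gCap-like cells was 94.6% and 94.7%.

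The ratio of the collagen IV chains differed between classes and was nearly equal in the libraries. Col4a1 gave 65.7% (65.2 to 66.1) of the Col4a1 and Col4a2 UMIs in the gCap-like cells of the control library and 65.6% (65.1 to 66.0) in those of the metastatic library. The share was 61.9% and 62.1% in aCap-like cells and 69.6% and 69.6% in vein-like cells. The other collagen IV chains were scarce, since Col4a1 and Col4a2 together held between 97.8% and 99.9% of collagen IV UMIs in gCap-like, aCap-like and artery-like cells. Across single gCap-like cells, the levels of Col4a1 and Col4a2 had a Pearson r of 0.31 in the control (5020 cells) and 0.38 in the metastatic library (4519 cells), and of 0.14 and 0.18 after thinning. Cells of a library share its depth and its free RNA. Among 4920 genes with a mean of at least 0.2 UMIs per cell, Col4a2 was the gene most like Col4a1, followed by the junction gene Cdh5 (0.27 and 0.25), Cd93, Malat1 and Kit, where the median gene had 0.03 and 0.03.

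Sparc had the reverse preference among capillary cells. It stood at 643 and 714 CPM in gCap-like cells and at 324 and 360.4 CPM in aCap-like cells, with 262 and 297 CPM in vein-like and 458 and 422 CPM in artery-like cells. gCap-like cells were thus 1.99 and 1.98-fold above aCap-like cells. After thinning, 64.5% and 67.6% of gCap-like cells and 39.0% and 40.0% of aCap-like cells held a Sparc UMI. Its most similar genes across gCap-like cells were its relative Sparcl1 (r of 0.16 and 0.17), Tmsb10, Cd34, Rplp0 and Rps16, with r between 0.13 and 0.17 in each library, which is weak.

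Among laminins, the sorted endothelium expressed mainly the chains Lama5, Lamb2 and Lamc1. Lama5, an alpha chain of mature vessels, stood at 69.8 and 73.6 CPM in gCap-like cells and held 91.1% and 89.2% of the laminin alpha chain UMIs there. In aCap-like cells Lama5 was lower, at 29.9 and 31.3 CPM. Of the beta chains, Lamb2, which is not among the 10 genes, held 92.0% and 93.1% of gCap-like UMIs, while Lamb1 held 5.84% and 4.10%. Lamc1, the gamma chain shared by most laminins, gave 81.1% and 85.1% of gamma chain UMIs in gCap-like cells, Lamc3 gave 16.8% and 13.5%. Lamc1 stood at 30.1 and 30.7 CPM in gCap-like cells and at 143 and 107 CPM in aCap-like cells. Nid1 followed the same order, with 68.3 and 87.6 CPM in gCap-like and 239 and 218 CPM in aCap-like cells, and it held at least 97.9% of nidogen UMIs in gCap-like, aCap-like and artery-like cells.

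**Figure D1:**
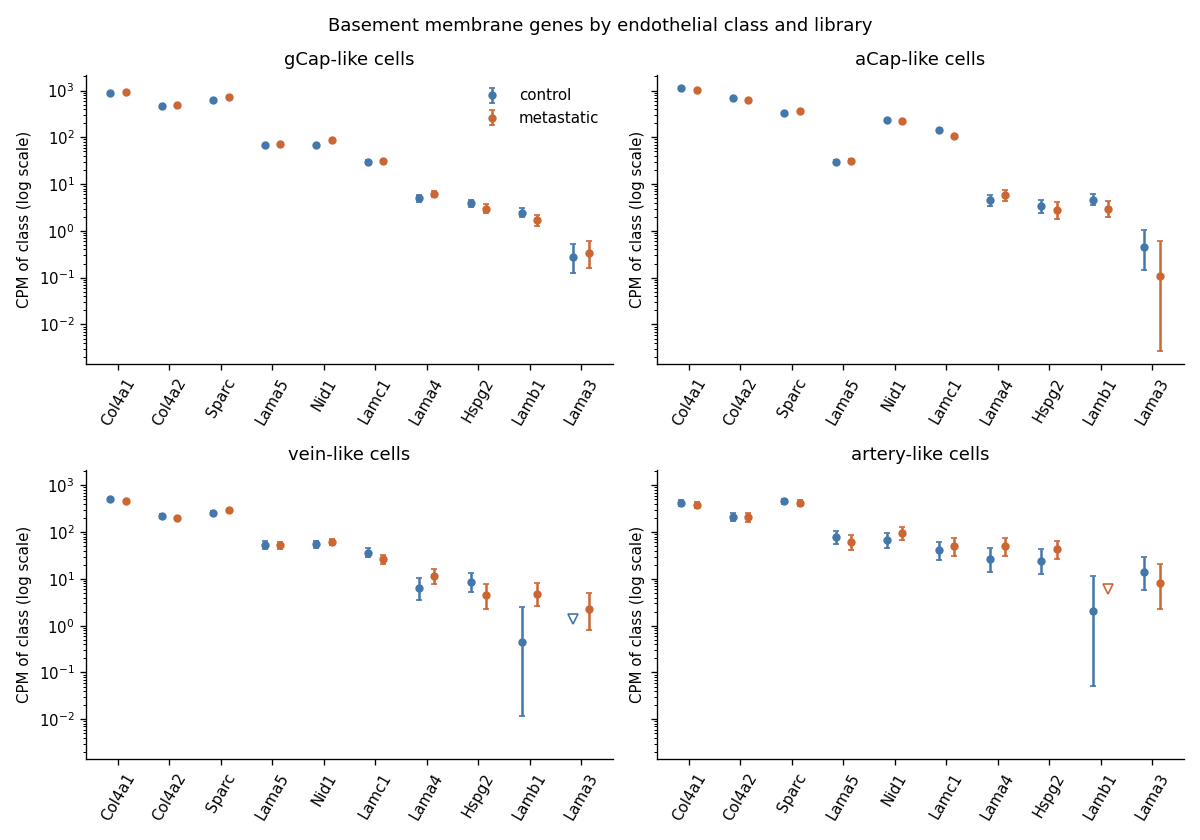
Level of each basement membrane gene (CPM of the class, log scale) in gCap-like, aCap-like, vein-like and artery-like cells of the control (blue) and metastatic (orange) library; bars are exact 95% Poisson intervals, and open triangles mark 0 UMIs, drawn at the level of 3 UMIs. Col4a1 lies between 389 and 1116 CPM in every class, whereas Lama4, Hspg2, Lamb1 and Lama3 are below 7 CPM in both capillary classes.

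The other 4 genes were scarce in capillary cells. Lama4, the alpha chain of laminins made by vascular and mesenchymal cells, stood at 4.98 CPM (4.24 to 5.82, 160 UMIs) and 6.11 CPM (5.26 to 7.05, 185 UMIs) in gCap-like cells. Hspg2 stood at 3.89 and 3.00 CPM, Lamb1 at 2.46 and 1.68 CPM, and Lama3, an alpha chain typical of epithelial laminin whose gene lies on chromosome 18, at 0.280 and 0.330 CPM (9 and 10 UMIs). In aCap-like cells Lama4 stood at 4.50 and 5.75 CPM, Hspg2 at 3.36 and 2.77 CPM, Lamb1 at 4.68 and 2.98 CPM, and Lama3 held 5 and 1 UMIs. The lymphoid-like cells held 0 UMIs of Lama4 and of Lama3, and a count of 0 allows up to 3 UMIs, here 10.9 and 10.6 CPM. They held 1 UMI of Lamb1 in the control (upper limit 20.2 CPM) and 1 of Hspg2 in the metastatic library (upper limit 19.8 CPM). The capillary levels of the 4 genes lie under these limits and cannot be told apart from background. In barcodes with 11 to 50 UMIs, which hold mostly free RNA and debris, Lama4 stood at 62.5 and 65.9 CPM, Hspg2 at 56.4 and 81.0 CPM and Lamb1 at 32.0 and 39.8 CPM, all above their level in gCap-like cells. The same held for Sparc (1311 and 1261 CPM), Nid1 (94.4 and 106 CPM) and Lamc1 (70.1 and 64.5 CPM), but not for Col4a1 (513 and 527 CPM). The fewer such barcodes not shared by the libraries held 76646 and 52468 UMIs in all. Lama4 was there at 52.2 and 38.1 CPM and Hspg2 at 65.2 and 19.1 CPM. Both values were above the gCap-like ones, but on only a few UMIs each and without an interval, so this order is not settled. Lamb1 was at 0 in the control and at 19.1 CPM in the metastatic library. Sparc (600 and 724 CPM), Nid1 (65.2 and 95.3 CPM) and Lamc1 (39.1 and 19.1 CPM) were there above the gCap-like level in 1 library only. The Lamb1, Nid1 and Lamc1 values also rested on few UMIs. The 3 most abundant genes were above the lymphoid-like class by a wide margin, with Col4a1 there at 10.9 and 21.3 CPM and Sparc at 14.5 and 17.7 CPM. For Nid1 the margin was narrower, since the lymphoid-like cells of the control held 39.9 CPM (19.9 to 71.4, 11 UMIs in 5 cells) and those of the metastatic library 7.09 CPM (0.859 to 25.6). Lamc1 in lymphoid-like cells of the metastatic library, 17.7 CPM (5.76 to 41.4), also overlapped its gCap-like level.

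A small number of capillary cells with mesenchymal markers carried a large part of Lama4 and Lamb1. Cells with at least 2 of 12 mesenchymal markers (among them Col1a1, Pdgfrb and Acta2) made up 2.20% of aCap-like cells in the control (30 cells) and 2.58% in the metastatic library (28 cells), with 3.01% and 3.23% of the UMIs. They held 62.7% and 48.1% of the Lama4 UMIs and 73.6% and 78.6% of the Lamb1 UMIs of the class. For Hspg2 the share was 23.7% and 30.8% (of 38 and 26 UMIs), and for Sparc it was 10.5% and 12.5%. In gCap-like cells the same rule took 2.09% and 2.12% of cells, which held 18.1% and 10.8% of Lama4 and 30.4% and 31.4% of Lamb1 UMIs. These gCap-like cells also held 11.2% and 8.79% of Hspg2 UMIs. Col4a1, Col4a2, Nid1 and Lama5 were not concentrated in this way, with at most 5.78% of their UMIs in such cells. Across aCap-like cells, Lama4 and Lamb1 had an r of 0.60 and 0.53, and of 0.45 and 0.16 after thinning.

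**Figure D2:**
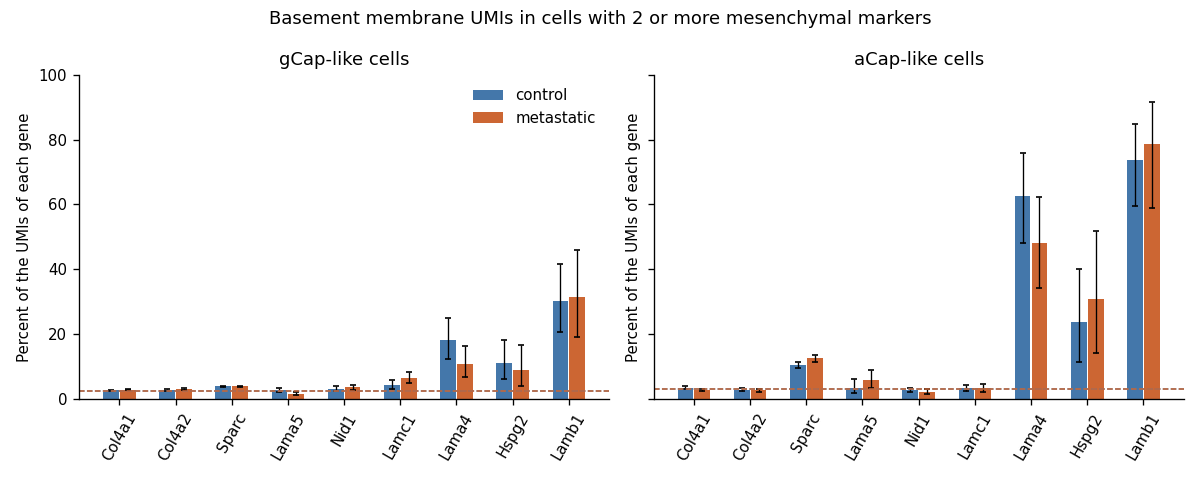
Percent of the UMIs of each gene found in cells with at least 2 mesenchymal markers, in gCap-like and aCap-like cells of the control (blue) and metastatic (orange) library; bars are exact 95% binomial intervals and dashed lines give the share of all UMIs in those cells (2.53% and 2.52% in gCap-like, 3.01% and 3.23% in aCap-like cells). Lama4 and Lamb1 reach 62.7% and 73.6% in the aCap-like cells of the control library.

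Aerocytes and general capillary cells share the alveolar bed, aerocytes being large cells that face the gas exchange surface and general capillary cells acting as their progenitors. Their basement membrane genes were compared within each library, where both classes come from the same mice, with a 2-fold difference in the same direction in both libraries counted as different. Of 10747 genes with enough UMIs, 3.56% were higher in aCap-like cells and 3.93% were lower. Of the 8 basement membrane genes among them, Lamc1 and Nid1 were higher and Lama5 was lower. Lamc1 was 4.77-fold higher in the control (log2 2.25, interval 2.14 to 2.37) and 3.49-fold higher in the metastatic library (1.81, 1.68 to 1.94). Nid1 was 3.50-fold higher in the control (log2 1.81, 1.72 to 1.89) and 2.49-fold higher in the metastatic library (1.32, 1.23 to 1.40). Lama5 was 2.33 and 2.35-fold lower. Thus Lama5 and Lamc1, the main alpha and gamma chains, had opposite preferences between the capillary classes. With free RNA by Scgb1a1 subtracted, the Nid1 log2 ratio was 3.46 and 1.73 and that of Lama5 -1.98 and -1.63. In the metastatic library the same setting gave 3.03 for Lamc1 and -7.02 for Sparc, and in the control it left no value for either.

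Sparc lay just inside the threshold, as given above. Col4a2 was 1.48 and 1.30-fold and Col4a1 1.26 and 1.12-fold higher in aCap-like cells. The Lama4 and Hspg2 intervals included equal levels in both libraries. After thinning, 23.5% and 19.3% of aCap-like cells against 6.08% and 5.51% of gCap-like cells held a Lamc1 UMI, and for Nid1 the shares were 35.4% and 32.2% against 11.8% and 14.5%.

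Vein-like and artery-like cells had less collagen IV than gCap-like cells. Against gCap-like cells, 1.77% of 8311 genes were at least 2-fold higher and 2.12% lower in vein-like cells in both libraries, and of the 6 basement membrane genes tested Col4a2 (0.484 and 0.405 of the gCap-like level) and Sparc (0.407 and 0.416) were lower. Col4a1 reached 0.580 and 0.486 of the gCap-like level in vein-like cells. Lama5 (52.6 and 51.9 CPM) and Nid1 (55.3 and 62.4 CPM) were lower than in gCap-like cells by less than 2-fold. Lama4 (6.35 and 11.6 CPM), Hspg2 (8.61 and 4.49 CPM), Lamb1 (1 and 13 UMIs) and Lama3 (0 and 6 UMIs) were scarce in vein-like cells too. In artery-like cells 0.756% of 4100 genes were higher and 2.71% lower, and of 5 basement membrane genes Col4a1 (0.479 and 0.417) and Col4a2 (0.464 and 0.420) were lower.

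Lama4, Hspg2 and Lama3, scarce in capillaries, had their highest level in the artery-like class, on few UMIs. Lama4 had 26.4 CPM (14.0 to 45.1, 13 UMIs) in control and 49.3 CPM (31.6 to 73.4, 24 UMIs) in metastatic cells. Hspg2 stood at 24.3 and 43.2 CPM (12 and 21 UMIs), with 11 of the 21 UMIs in a single cell, and Lama3 at 14.2 and 8.22 CPM (7 and 4 UMIs). Lamb1 had 2.03 CPM (1 UMI) in control and 0 UMIs in metastatic cells, which allows up to 6.17 CPM. Nid1 (66.9 and 94.6 CPM), Lamc1 (40.6 and 49.3 CPM) and Lama5 (79.1 and 61.7 CPM) were measured on 20 to 46 UMIs each. Lama5 and Lama4 therefore shared the alpha chain UMIs of artery-like cells, with 63.9% and 50.8% for Lama5 and 21.3% and 40.7% for Lama4. Mesenchymal markers of artery-like cells summed to 801 CPM (control) and 82.2 CPM (metastatic), and 4 and 3 of the cells held at least 2 of them. Without these cells, Lama4 stood at 24.5 and 44.3 CPM, Hspg2 at 17.9 and 44.3 CPM and Lama3 at 15.6 and 8.87 CPM. Lymphatic markers reached 1480.0 CPM in the artery-like cells of the metastatic library, against 2.03 CPM in the control, with 2 cells holding at least 2 of them, and their part in these levels was not tested.

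**Figure D3:**
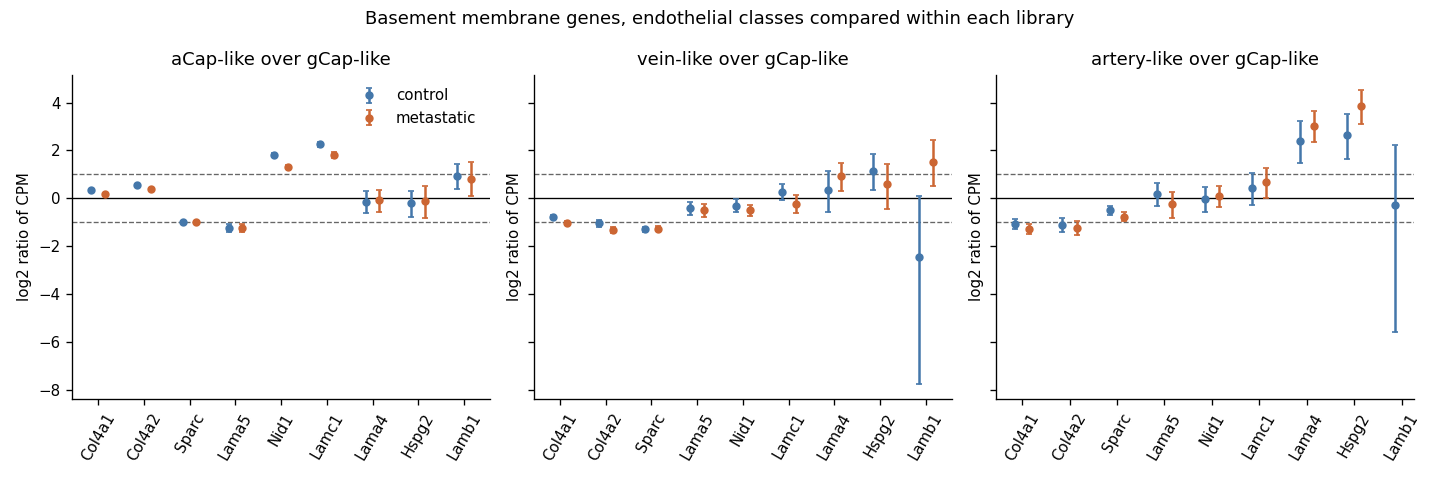
Log2 ratio of CPM in aCap-like, vein-like and artery-like cells over gCap-like cells of the same library (control blue, metastatic orange), with exact 95% intervals for counting error; dashed lines mark 2-fold. Nid1 (1.81 and 1.32) and Lamc1 (2.25 and 1.81) lie above the upper line in aCap-like cells and Lama5 (-1.22 and -1.23) below the lower one; Lama3 is not drawn.

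The question of the study was how lung endothelium changes during the first hours of colonization. In gCap-like cells, 9 of the 10 genes had at least 100 UMIs over both libraries, and a level at least 25% higher or at least 20% lower, the same fold in either direction, was used as a limit of size. Of 11220 genes, 10.5% were higher and 5.87% lower by this limit in the metastatic library. Among the 9 genes, Nid1 was higher, and Hspg2 and Lamb1, which had the fewest UMIs of the 9, were lower. At 1.5-fold, 3.38% of all genes were higher and 1.8% lower, and none of the 9 passed. The median log2 ratio of the 9 genes was 0.08, beside 0.02 for all genes tested, whose central 95% ran from -0.51 to 0.66. No basement membrane gene left this range except Lamb1.

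Nid1 had the clearest difference in gCap-like cells. Its level was 68.3 CPM (65.5 to 71.2, 2193 UMIs) in control and 87.6 CPM (84.3 to 90.9, 2652 UMIs) in metastatic lungs, a 1.28-fold difference (log2 0.36, 0.28 to 0.44). The intervals did not overlap, and the thinned share of cells with a Nid1 UMI was 11.8% and 14.5%. Sparc was 1.11-fold higher (log2 0.15, 0.12 to 0.18). The collagen IV chains differed by less, with log2 0.07 (0.05 to 0.10) for Col4a1 and 0.08 (0.05 to 0.11) for Col4a2. Subtraction of free RNA estimated from the epithelial gene Scgb1a1 turned these values to -0.07 and -0.10 and gave 1.35 for Nid1, whereas an estimate from lymphoid-like cells gave 0.08, 0.06 and 0.35. For Lama5 (0.08, -0.01 to 0.16), Lamc1 (0.03, -0.10 to 0.16) and Lama4 (0.29, -0.02 to 0.61) the interval included 0. Hspg2 (-0.37, -0.78 to 0.03) rested on 125 and 91 UMIs and Lamb1 (-0.55, -1.09 to -0.02) on 79 and 51 UMIs. Both are among the genes that could not be told apart from background. Neither was counted as lower when cells with markers of any other cell type were left out. Lamb1 was not counted there for want of UMIs. Without cells with mesenchymal markers alone it already had under 100, at 1.758 and 1.185 CPM. The log2 ratio was below 0 under every alternative that gave a value, 15 for Hspg2 and 16 for Lamb1.

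Marker sums of other cells differed between the libraries as well. In gCap-like cells all 4 platelet markers were detected in each library and summed to 158 and 245 CPM, the 12 mesenchymal markers to 38.2 and 51.4 CPM, and the 4 red cell markers to 1956 and 822 CPM. The 5 melanoma markers summed to 1.81 and 2.34 CPM. The 8 epithelial markers summed to 1884 and 1128 CPM and the 11 leukocyte markers to 362.5 and 260.4 CPM. Sparc is also known in platelets. Cells with at least 2 platelet markers held 609.7 and 688 CPM of Sparc in the gCap-like class (299 and 431 cells), against 643 and 714 CPM over the class. Such cells held more than their class in aCap-like (444 and 466 CPM, 60 and 78 cells) and vein-like cells (507 and 444 CPM, 7 and 14 cells). In the artery-like class 6 metastatic cells held 745 CPM and the 1 control cell held 0 UMIs of Sparc. Without the cells with platelet markers the gCap-like log2 ratio was 0.15 for Sparc and 0.38 for Nid1, and without cells with mesenchymal markers 0.15 and 0.35. The part of the epithelial, leukocyte and red cell sums was not tested.

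In aCap-like cells the direction was the opposite for several genes. Of 9504 genes, 9.5% were at least 25% higher and 5.15% at least 20% lower in the metastatic library, and of 7 basement membrane genes Lama4 was higher and Lamc1 lower. Lamc1 had 143 CPM (136 to 151) in control and 107 CPM (101 to 114) in metastatic lungs, 0.749 of the control level (log2 -0.42, -0.53 to -0.30), and the thinned share of cells with a Lamc1 UMI was 23.5% (21.2 to 25.8) and 19.3% (17.0 to 21.8). Col4a1 (log2 -0.09, -0.13 to -0.06), Col4a2 (-0.11, -0.16 to -0.06) and Nid1 (-0.13, -0.22 to -0.05) were slightly lower, and Sparc (0.15, 0.09 to 0.22) was slightly higher, as in gCap-like cells. The Lama4 value (0.35, -0.23 to 0.93) rested on 51 and 54 UMIs and was counted as higher in 8 of 19 alternative settings. Under both other scalings it was at 0.31, short of the limit, and without cells with mesenchymal markers it was at 0.83 (-0.06 to 1.76) with under 100 UMIs. With free RNA by Scgb1a1 subtracted, Col4a2 and Nid1 also passed as lower. In aCap-like cells the epithelial markers summed to 698 and 107 CPM, the platelet markers to 68.8 and 144 CPM and the mesenchymal markers to 107 and 121 CPM, and the part of the epithelial sum was not tested. Without cells with markers of any other type, Lamc1 was at -0.44 and Sparc at 0.12. The median over the 7 genes was -0.09, beside 0.03 over all genes tested.

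**Figure D4:**
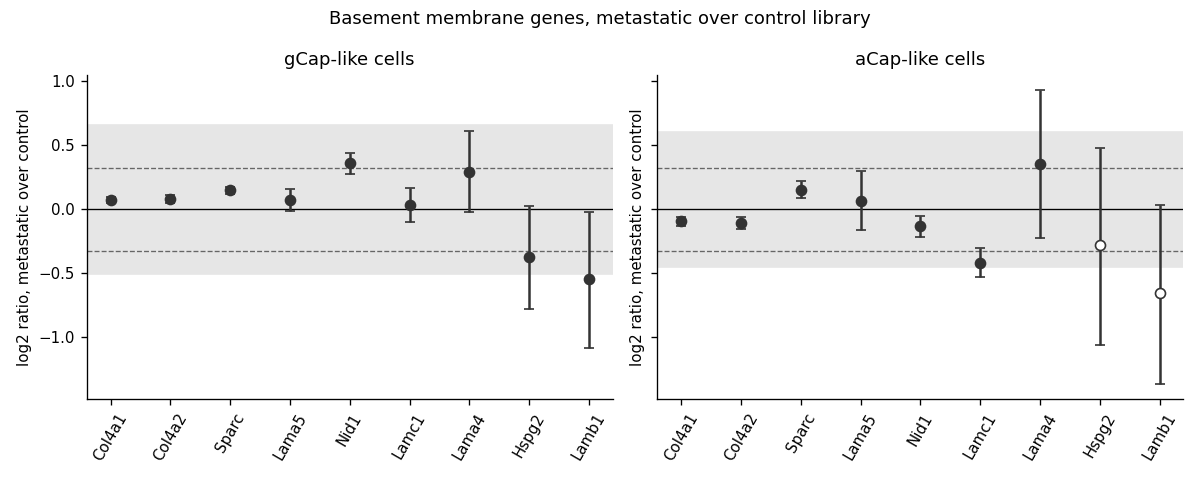
Log2 ratio of the metastatic over the control library for each basement membrane gene in gCap-like and aCap-like cells, with exact 95% intervals for counting error; open circles have under 100 UMIs, the grey band holds the central 95% of all genes tested, and dashed lines mark the limits of 25% higher and 20% lower. Nid1 is at 0.36 in gCap-like and -0.13 in aCap-like cells, and Lamc1 at 0.03 and -0.42.

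With Nid1 higher in gCap-like and Lamc1 and Nid1 lower in aCap-like cells, the gap between the capillary classes was smaller in the metastatic library. The aCap-like over gCap-like log2 ratio was smaller by 0.49 for Nid1 (from 1.81 to 1.32) and by 0.45 for Lamc1 (from 2.25 to 1.81). Over all 383 genes that were at least 2-fold higher in aCap-like cells, the median change was 0.01 and 80% of genes lay between -0.43 and 0.39, so both genes lay just outside that range. Of 5 aerocyte markers, Kdr had a smaller gap by a like amount (-0.46), whereas Car4 (0.09), Apln (-0.04), Emcn (0.02) and Chst1 (-0.11) did not. For Sparc (0.003) and Lama5 (-0.01) the gap was equal in both libraries. These differences of differences were not tested, since each group was 1 library.

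In vein-like cells 12.0% of 6260 genes were higher and 10.5% lower by the same limits. Of 6 basement membrane genes, only Lamc1 passed, with 36.3 CPM (80 UMIs) and 26.2 CPM (70 UMIs) and an interval that included 0 (log2 -0.47, -0.96 to 0.01). Col4a1 (-0.18, -0.30 to -0.06) was lower and Sparc (0.18, 0.03 to 0.34) higher by less. Without the 8 control and 15 metastatic cells with at least 2 mesenchymal markers, Sparc was nearly equal at 264 and 268 CPM. Col4a1 was still lower there, at 499 and 434 CPM. A single metastatic vein-like cell held 62 of the 795 Sparc UMIs. Epithelial markers of vein-like cells summed to 144 CPM (control) and 4147 CPM (metastatic), and their part in these values was not tested. In artery-like cells 16.8% of 1827 genes were higher and 13.4% lower, and of the 3 basement membrane genes with enough UMIs (Col4a1, Col4a2 and Sparc) none passed, with log2 ratios from -0.13 to -0.06.

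The study described a reactive state of general capillary cells, rCap. Cells with at least 3 of its 7 genes Pim3, Bcl3, Inhbb, Osmr, Tmem252, Adamts9 and Scarb1, which the study picked in part on these libraries, after thinning to 2000 UMIs were called rCap-positive, 330 of 4947 gCap-like cells (6.67%) in the control and 468 of 4461 (10.5%) in the metastatic library. None of the 10 genes was used to choose them. rCap-positive cells had more Col4a1, Col4a2 and Sparc than other gCap-like cells in each library. Col4a1 stood at 1032 against 876 CPM in control (log2 0.24, 0.17 to 0.30) and at 1196 against 899 CPM in metastatic lungs (0.41, 0.36 to 0.46). Col4a2 differed by 0.14 and 0.36, Sparc by 0.26 and 0.43, and Nid1 by 0.21 (-0.02 to 0.44) and 0.40 (0.24 to 0.56). The median gene differed by -0.02 and -0.04. Most genes tested lay between -0.62 and 0.44 in the control and between -0.68 and 0.54 in the metastatic library. Col4a1, Col4a2, Sparc and Nid1 lay inside these ranges. The laminin chains Lama5 (0.05 and -0.02) and Lamc1 (-0.15 and -0.07) had intervals that included 0. rCap-positive cells were slightly deeper, with medians of 6141.5 against 5977 UMIs in the control and 6687 against 6271 in the metastatic library.

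The value of Lamc1 depended on how the state was defined. With at least 1 Inhbb UMI as the rule (116 and 338 cells), Lamc1 was higher in positive cells by log2 0.75 and 1.09 and Hspg2 by 2.15 and 1.58 (14 and 21 UMIs, beside 0.13 and 0.97 by the rule of 3 genes), while Col4a1 (0.30 and 0.47), Col4a2 (0.37 and 0.55) and Nid1 (0.49 and 0.53) were again higher. Lama5 was at 0.05 in the control and 0.39 (0.20 to 0.58) in the metastatic library by this rule. A single control gCap-like cell held 13 Hspg2 UMIs, and its part in the control value of Hspg2 was not tested. After rCap-positive cells were left out, the difference between libraries in the remaining gCap-like cells was 0.32 for Nid1, 0.12 for Sparc, 0.04 for Col4a1 and 0.04 for Col4a2. The Nid1 difference was thus nearly as large without them, and those of the collagen IV chains were close to the shift of -0.03 that median-of-ratios scaling gave to all gCap-like ratios.

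**Figure D5:**
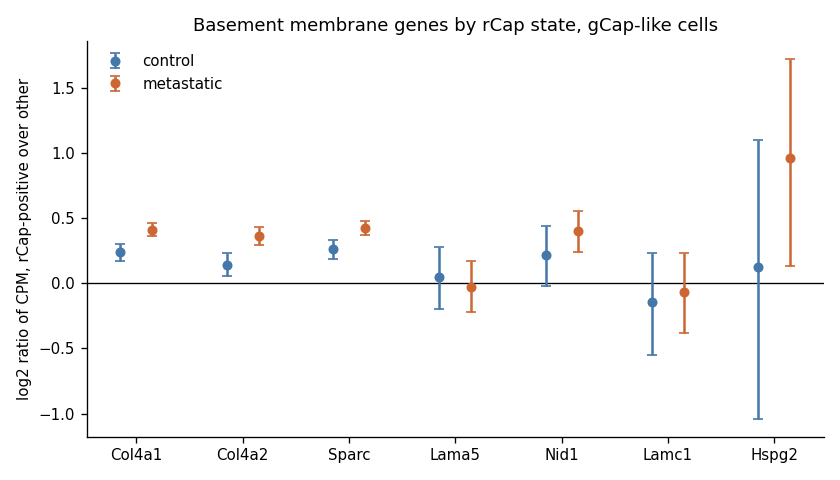
Log2 ratio of CPM in rCap-positive over other gCap-like cells of the same library (control blue, metastatic orange), with exact 95% intervals for counting error. Col4a1 (0.24 and 0.41), Col4a2 (0.14 and 0.36) and Sparc (0.26 and 0.43) are above 0 in both libraries, and Lama5 (0.05 and -0.02) and Lamc1 (-0.15 and -0.07) are not.

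A list of 52 further basement membrane genes put the 10 in context. In gCap-like cells 38 of them had at least 100 UMIs, of which 6 were higher and 5 lower by the same limits in the metastatic library (10.5% and 5.87% of all genes), with a median log2 ratio of -0.01. Of the folding and export genes for collagen, Serpinh1, the collagen chaperone HSP47, was higher (97.2 and 125 CPM, 1.29-fold), P4ha2, a prolyl hydroxylase subunit, was lower (48.5 and 35.4 CPM), and the other 12 did not pass. Of the receptors, the collagen-binding integrin subunit Itga2 (45.8 and 67.5 CPM, 1.47-fold) and the heparan sulfate proteoglycan Sdc4 (30.6 and 50.6 CPM, 1.66-fold) were higher, and the abundant subunits Itga1 (1192 and 1181 CPM) and Itgb1 (777 and 787 CPM) were nearly equal. Of the other matrix genes, Tinagl1 (315 and 249 CPM) and fibronectin, Fn1 (7.69 and 3.40 CPM), were lower, and Egfl7 (1269 and 1282 CPM) was the most abundant. The multiplexin collagens Col15a1 (3.83 and 6.08 CPM, 1.59-fold) and Col18a1 (1.46 and 2.87 CPM, 1.96-fold) were higher at low levels, Col4a4 (2.31 and 2.94 CPM) was higher, and Col4a3 (1.93 and 1.35 CPM) and Lamc3 (6.23 and 4.89 CPM) were lower, the intervals of Col4a3 and Col4a4 including 0. The partner chain Lamb2 was equal within counting error (38.8 and 38.2 CPM).

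In aCap-like cells 32 of the 52 genes had at least 100 UMIs, and 1 was higher and 3 lower (9.5% and 5.15% of all genes). Itga2 was again higher (70.4 and 97.1 CPM, 1.38-fold), and Lamc3 (19.9 and 11.8 CPM, 0.593 of control), Fn1 (7.95 and 5.54 CPM) and the lysyl hydroxylase Plod2 (56.6 and 42.4 CPM) were lower. Both gamma chains expressed by aCap-like cells, Lamc1 and Lamc3, were thus lower in the metastatic library, while Lamb2 (39.5 and 38.6 CPM) and Lama5 (29.9 and 31.3 CPM) were equal within counting error.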

How the data were processed

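The authors aligned the reads of 3′ end libraries to mm10 with Cell Ranger and deposited UMI counts per gene and barcode for all barcodes. The file headers give software version 3.1.0. From these counts, barcodes with 1000 to 5000 genes and under 20% mitochondrial UMIs were kept. Cells were classed by at least 2 detected markers (aCap: Ednrb, Fibin, Tbx2; vein: Slc6a2, Car8, Bst1; artery: Gja5, Bmx, Fbln5; gCap: Gpihbp1, Aplnr, Kit, Lpl, and none of the other rules), and cells of several classes were left out, as were 341 and 415 cells of no class. UMIs were summed per class and library and scaled to CPM. Poisson, conditional binomial and Clopper-Pearson intervals were computed with Python 3.11.15, numpy 2.4.6, scipy 1.17.1 and pandas 2.3.3. edgeR 4.0.16 and DESeq2 1.42.0 gave alternative scaling only. Ratios between libraries needed 100 UMIs over both, ratios between classes 20 expected UMIs, a limit set after the data were seen. Free RNA was taken from barcodes of 11 to 50 UMIs. All 10 genes were measured in every class and named in the text, other genes by the limit of 25% higher or 20% lower, abundance or partnership. The genes, lists and rules were chosen with earlier results of these data known. Doublets were not removed in the values given, and a simulated-doublet score was an alternative. Sequences were read from RefSeq windows (GRCm38.p6). Ratios were tested on simulated data.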

Additional observations from a re-analysis of the deposited data

Results flagged for a closer look

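Collagen IV and nidogen differed between the libraries in opposite directions in different endothelial classes. The metastatic over control log2 ratio of Col4a1 was 0.073 in gCap-like cells but -0.095 in aCap-like and -0.18 in vein-like cells. For Col4a2 the values were 0.078, -0.11 and -0.18, the last with an interval that ended at -0.0002. For Nid1 the values were 0.36 in gCap-like and -0.13 in aCap-like cells. Only values with a counting interval on 1 side of 0 were flagged. Others, such as Nid1 in vein-like cells (0.17, -0.17 to 0.52), were left out by this rule. Each group was a single library, and the difference between classes was not tested.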

How the results depend on the processing

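No paired analysis was possible because each group was 1 library, and no replicate could be left out. In gCap-like cells, the count of genes at least 25% higher was 1 and became 2 (Lama4 added) with a minimum of 300 genes per barcode, with gCap-like cells free of the other classes' genes, without cells with mesenchymal markers, without cells with markers of any other type and with free RNA estimated from lymphoid-like cells, 3 (Lamc1 and Sparc added) with free RNA estimated from Scgb1a1, and 0 at 1.5-fold. The count at least 20% lower was 2 and became 1 under the first 3 of these settings and 0 under the other 4 as well as after thinning to 2000 UMIs and with Scgb1a1 read from barcodes not shared by the libraries. Without cells with mesenchymal markers, Lamb1 had under 100 UMIs and was not counted. In aCap-like cells the count higher was 1 (Lama4) and became 0 in 11 of 19 settings, and the count lower was 1 (Lamc1) and became 0 at 1.5-fold and 3 with Scgb1a1 or with no filter on low counts. The median log2 ratio was 0.64 in gCap-like and -0.36 in aCap-like cells with free RNA by Scgb1a1, which also turned Col4a1 (-0.071) and Col4a2 (-0.10) in gCap-like cells. The subtraction left no Lamc1 or Sparc UMIs in control gCap-like cells. Both genes therefore counted as higher without a finite ratio, also in the gCap-like median. Of the gCap-like genes with a finite ratio, Nid1 was at 1.35 and Lama5 at -0.20. The Scgb1a1 estimate put free RNA at 16.1% to 69.4% of a class. Without cells with markers of any other type the aCap-like median was -0.047, and the artery-like median, -0.12, was 0.23, or 0.18 without cells with mesenchymal markers. The count lower in aCap-like than in gCap-like cells was 1 and became 2 (Sparc added) without doublets, mesenchymal or platelet cells and under both other free RNA estimates, and 3 (Sparc and Lama4 added) without markers of any other type. In metastatic gCap-like cells the r of Lama4 and Lamb1 was 0.01, and -0.0068 after thinning. Lamc1 and Nid1 stayed higher in aCap-like cells under every alternative that gave a value, and Nid1 in gCap-like cells kept its sign under all 18 (0.32 to 1.35). The causes were not tested. Planned free RNA estimates from 5 epithelial genes exceeded 100% in some classes (up to 710.8%) and gave no value. The estimates from Scgb1a1 and lymphoid-like cells and the platelet and rCap settings were chosen after seeing the data. TMM and median-of-ratios scaling moved all log2 ratios by at most 0.052.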

Other observations

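The 52 further basement membrane genes were also followed outside the capillaries. In vein-like cells 28 had at least 100 UMIs, of which P4ha1, Plod1, Colgalt1 and Sdc4 were at least 25% higher and Lamb2, Col18a1, Tinagl1 and Plod2 at least 20% lower in the metastatic library (12.0% and 10.5% of all genes), with a median log2 ratio of 0.03. In artery-like cells 14 had at least 100 UMIs, of which Hmcn1 and Serpinh1 were higher and Lamb2, Sparcl1 and Bcam lower (16.8% and 13.4% of all genes).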
